A study of Rattus norvegicus with 20 samples.

Results

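Kidney microvessels of Dahl salt-sensitive (SS) rats were compared on a high-salt diet with those of SS rats labelled null for the chemokine gene Ccl2. The comparison used 10 of the 20 libraries of the study, 5 from SS rats with both Ccl2 alleles intact (Ccl2+/+) and 5 from SS rats carrying the null genotype (Ccl2-/-), each library from 1 rat. All were males of the SS background fed 4.0% NaCl for 2 weeks; the other 10 libraries, 5 of each genotype, came from rats on 0.3% NaCl. Vessels were dissected from the kidney, and polyadenylated RNA was sequenced. Neither the kind of Ccl2 mutation nor the age of the rats is given in the sources used here, and Ccl2-/- stands for the label throughout. Of 16672 genes in the deposited table, 16153 had at least 10 normalized counts in at least 5 of the 20 libraries and were tested. A normalized count is the number of reads of a gene divided by a factor for its library, so that libraries of unequal depth can be set side by side. The high-salt libraries held 22035178 to 39094524 reads.

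CCL2 is a chemokine that draws monocytes out of the blood through its receptor CCR2, and it is made by endothelium, smooth muscle, tubule cells and macrophages under the control of NF-kB. The SS rat develops hypertension on a high-salt diet, with infiltration of leukocytes, fibrosis and tubular injury in the kidney. Myogenic tone, which the title of the study names, is the constriction with which small renal arteries answer a rise in pressure, and it protects the glomeruli behind them. The comparison asks which transcripts of the preparation differ with the Ccl2 genotype while the salt load is the same.

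Ccl2 transcripts were present in every high-salt library and were fewer in Ccl2-/- rats. Ccl2 stood at 79.4, 99.5, 107, 128 and 77.5 normalized counts in Ccl2-/- rats 1 to 5 and at 223, 426, 226, 167 and 384 in SS rats 1 to 5. The ranges did not overlap, and the mean log2 difference was -1.46 (exact permutation p = 0.00794, two-sided, the smallest that 5 against 5 rats can give). A null allele can still be transcribed, and on 0.3% NaCl the Ccl2 ranges of the genotypes overlapped, as given below. The level on high salt therefore cannot settle whether the labels are right. Ccr2, the receptor of CCL2 on monocytes, stood at 147, 168, 151, 219 and 179 in Ccl2-/- rats and at 295, 520.3, 338, 281 and 309 in SS rats, again without overlap. Its log2 difference, Ccl2-/- minus SS as in every value of this kind here, was -0.98 ± 0.18 (standard error; limma, adjusted p = 0.00216). The related ligands Ccl7 (-1.15 ± 0.37, adjusted p = 0.0534) and Ccl12 (-0.80 ± 0.33, adjusted p = 0.123) did not pass the threshold of 0.05.

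The libraries differed in their share of tubule marker transcripts. Markers of proximal tubule, thick ascending limb, distal tubule and collecting duct were summed, with mitochondrially encoded genes left out of the total. Together they took 3.89 ± 0.207% of normalized counts in Ccl2-/- rats and 3.35 ± 0.172% in SS rats (SD, n = 5 each). The means differed (exact permutation p = 0.0159), but the ranges overlapped, 3.59 to 4.08% in Ccl2-/- rats and 3.18 to 3.62% in SS rats. The mean log2 level of the same markers, the tubule score, did not overlap between the genotypes, so tubule content and genotype cannot be told apart in these libraries. Whether the dissection gave the difference was not tested. Mitochondrially encoded transcripts took 13.3 ± 2.83% and 13.3 ± 5.98% of counts. SS rat 1 stood apart from the other libraries on a principal component. The smooth muscle genes Acta2 (7764 to 13250 normalized counts) and Myh11 (6467 to 18064) and the endothelial gene Pecam1 (6089 to 13505) were abundant in all 10 libraries, and so was the tubule gene Umod (54033 to 100566). In whole-tissue RNA, fewer cells of a type and less RNA per cell cannot be told apart.

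On high salt 1376 genes, or 8.52% of those tested, differed between the genotypes. In Ccl2-/- rats 778 genes (4.82%) were lower and 598 (3.7%) higher. A change of at least 2-fold was more often downward: 171 genes against 65. The median over all tested genes was 0.00 on the log2 scale. The ranges of the genotypes did not overlap for 730 genes that were lower in Ccl2-/- rats (4.52%) and 628 that were higher (3.89%). The count of 1376 moved in both directions when single rats were left out. It was 612, 893, 964, 1711 and 1798 without SS rats 1 to 5, and 989, 850, 1009, 714 and 753 without Ccl2-/- rats 1 to 5. Without SS rat 1, 3.79% of genes passed (2.33% lower and 1.45% higher). Of the 1376 genes 584 passed again without it, and 485 passed in all 10 fits that leave out 1 high-salt rat. All 1376 kept their direction without SS rat 1. The fit that chose them holds all the other rats, so a kept direction is close to given. With the tubule score as a covariate 189 genes passed (1.17%). Every gene described below as lower or higher passed in the fit of all rats and also without any 1 of the 10 high-salt rats, unless a rat is named. The counts in the lists below are to be read beside the shares over all genes, 4.82% lower and 3.7% higher.

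**Figure D1:**
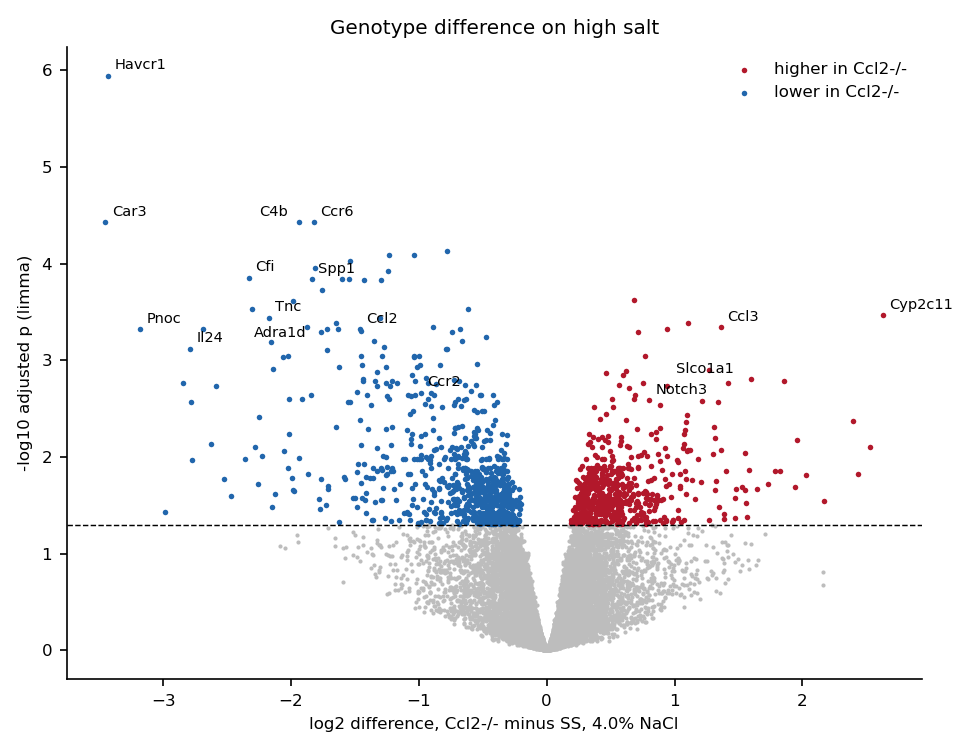
Log2 difference between Ccl2-/- and SS rats on 4.0% NaCl (x axis) against the adjusted p of limma on a -log10 axis (y axis), 1 point for each of 16153 genes. Blue points were lower (778) and red points higher (598) in Ccl2-/- rats at an adjusted p under 0.05 (dashed line). Car3 and Havcr1 lie farthest to the left among the blue points and Cyp2c11 farthest to the right among the red.

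Injury genes of the tubule were lower in Ccl2-/- rats. Of 23 tested members 14 were lower in Ccl2-/- rats and 0 higher, with a median of -0.71 against 0.00 over all genes. Without SS rat 1 the count was 11, and with the tubule score as a covariate 8. Havcr1 encodes KIM-1, a receptor that injured proximal tubule cells put on their surface and shed into urine. It stood at 224, 191, 145, 245 and 168 normalized counts in Ccl2-/- rats 1 to 5 and at 2975, 2771, 3068, 1304 and 1145 in SS rats 1 to 5. Each SS rat lay several-fold above the highest Ccl2-/- rat, and SS rats 4 and 5 lay below SS rats 1 to 3. The difference of -3.43 ± 0.30 had the smallest p of all genes (adjusted p = 1.13e-06). Spp1, the secreted phosphoprotein osteopontin that attracts macrophages and T cells, stood at 20543, 23504, 20359, 25513 and 27808 in Ccl2-/- rats and 166058, 107517, 85672, 54490 and 48923 in SS rats. Its groups did not overlap (-1.84 ± 0.24, adjusted p = 1.44e-04), and SS rats 4 and 5 were again the lowest of their group. Lcn2, the iron-trapping protein NGAL of injured tubules, ranged over 262 to 351 in Ccl2-/- rats and 649.6 to 1726 in SS rats (-1.81 ± 0.23, adjusted p = 1.12e-04). Timp1, an inhibitor of matrix metalloproteinases, ranged over 418 to 529 and 830.2 to 1747 (-1.23 ± 0.15, adjusted p = 8.19e-05).

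The chaperone clusterin (Clu, -1.30 ± 0.17), the hyaluronan receptor Cd44 (-1.31 ± 0.19) and the 3 chains of fibrinogen, Fga (-0.89 ± 0.18), Fgb (-1.63 ± 0.25) and Fgg (-2.25 ± 0.44), were lower too. So were the simple-epithelium keratins Krt8 (-0.71 ± 0.14) and Krt18 (-0.70 ± 0.15). In a list of parietal and injured epithelium, which shares these keratins with the injury list, 4 of 7 members were lower, with Krt7 (-0.56 ± 0.13) and the microtubule-binding protein Dcdc2 (-1.01 ± 0.17) as the others. The summed markers of healthy tubule differed in the other direction. Serpina3a, of the family of the acute-phase antiprotease antichymotrypsin, was among the 12 largest decreases (-2.31 ± 0.33), and reads of that family are uncertain between near-identical copies.

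**Figure D2:**
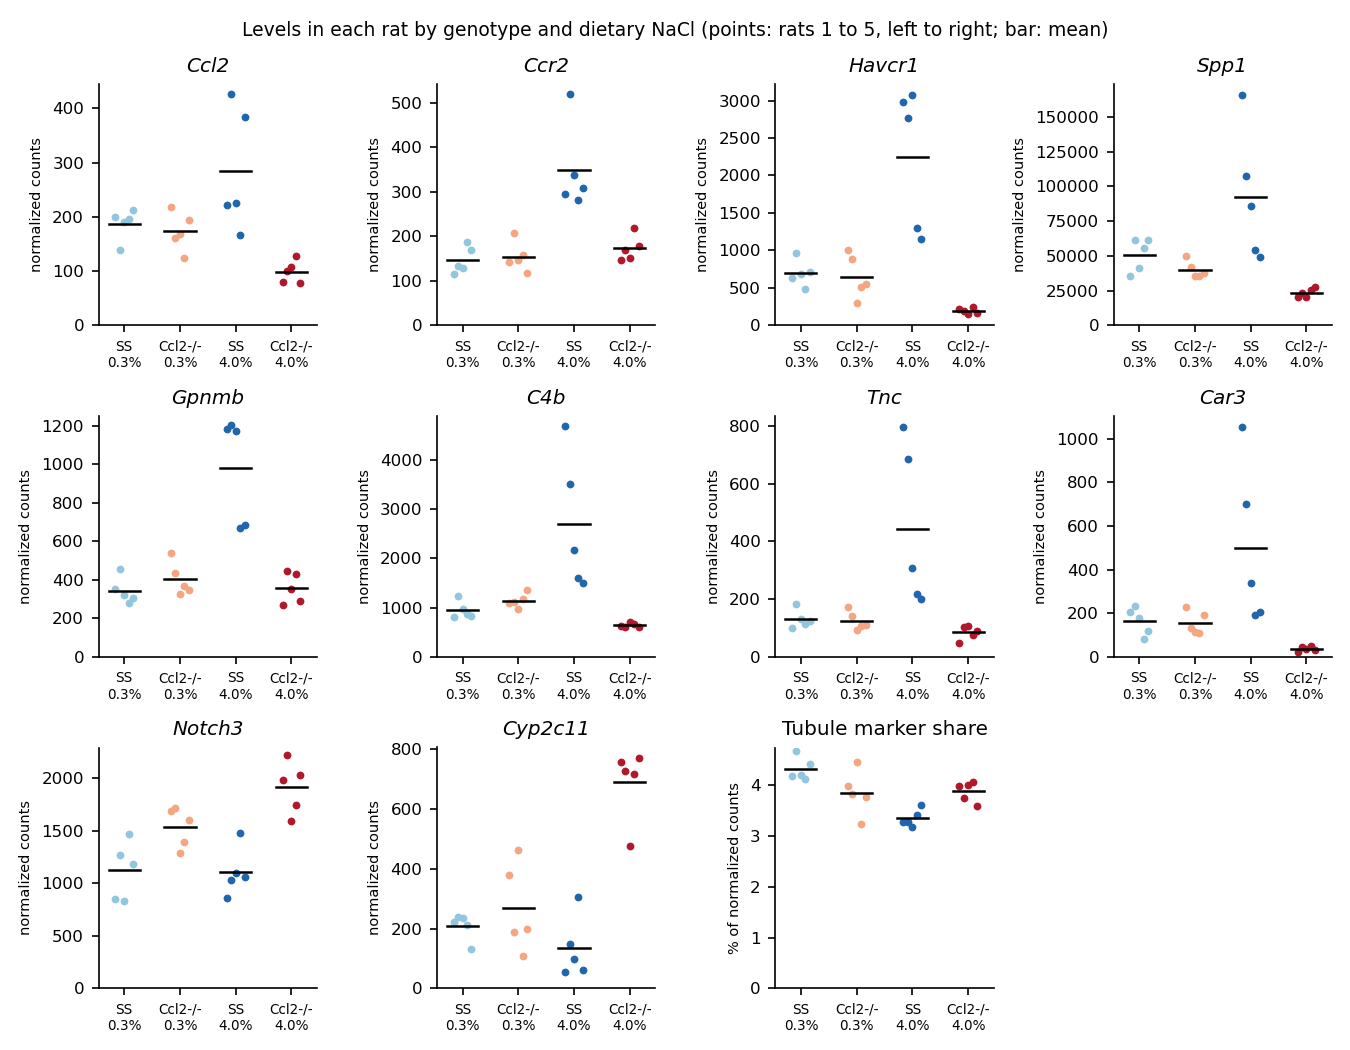
Normalized counts (y axis, linear from 0) of 10 genes, and the tubule marker share in percent, in every rat of the 4 groups (x axis; n = 5 each). Points are rats, and the bar is the group mean. On high salt Havcr1, Spp1, C4b, Gpnmb, Tnc and Car3 were lower in all 5 Ccl2-/- rats than in any SS rat, and Cyp2c11 and Notch3 were higher.

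Leukocyte genes that passed were mostly lower in Ccl2-/- rats, while many members of each list, the general macrophage marker Cd68 among them, did not pass. Of 31 tested macrophage and monocyte genes 9 were lower and 1, Adgre1 (the surface protein F4/80), was higher, with a median of -0.14. Adgre1 (0.66 ± 0.18, adjusted p = 0.0280) did not pass without SS rats 1 or 3 or Ccl2-/- rats 2 or 4. Gpnmb, a glycoprotein of lipid-laden and repair macrophages, stood at 267, 447, 353, 430.2 and 292 normalized counts in Ccl2-/- rats and 1184, 1203, 1170, 670.3 and 683 in SS rats. Its groups did not overlap (-1.43 ± 0.19, adjusted p = 1.49e-04). The lectin Clec10a (-1.24 ± 0.16), the inhibitory Fc receptor Fcgr2b (-1.28 ± 0.20), the lectin Lgals3 (-0.78 ± 0.12) and Ccr2 were lower as well. The lysosomal marker Cd68 (0.00 ± 0.30, adjusted p = 0.996) and the fractalkine receptor Cx3cr1 (0.23 ± 0.21, adjusted p = 0.520) did not pass. The summed macrophage list took 0.157 to 0.197% of counts without mitochondrial genes in Ccl2-/- rats and 0.174 to 0.246% in SS rats, and these ranges overlapped. With the tubule score as a covariate 3 macrophage genes were lower.

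T and NK cell genes had 6 lower and 0 higher members among 29, with a median of -0.29, and 2 lower when scaled to the library total. The proximal kinase of the T cell receptor, Zap70 (99.0 to 118 normalized counts in Ccl2-/- rats and 186 to 249.6 in SS rats, adjusted p = 9.05e-04), and its adaptor Lat (-0.86 ± 0.19, adjusted p = 0.00829) were lower. The receptor chains Cd3d (-1.02 ± 0.29) and Cd3e (-0.69 ± 0.22), the co-receptor chain Cd8b (-0.91 ± 0.28) and Cd5 (-0.87 ± 0.25) passed in the fit of all rats. Each of these 4 lost its call without any 1 of several rats, SS rat 2 and Ccl2-/- rat 1 among them for all 4. The count fell to 2 without SS rat 2 or Ccl2-/- rat 1, and to 3 without SS rat 1 or Ccl2-/- rats 2, 3 or 4. B and plasma cell genes had 3 lower among 10 and 1, Fcrla (-1.45 ± 0.31), without SS rats 1, 2 or 3 or Ccl2-/- rats 1 or 5. Of 9 dendritic cell genes 2 were lower, the transcription factor Batf3 (-1.54 ± 0.29) and the homing receptor Ccr7 (-1.29 ± 0.30). With the tubule score limma passed 0 genes of the T and NK, B and plasma, and dendritic lists, with 7, 2 and 2 at an unadjusted p under 0.05. Without that score edgeR passed 7, 3 and 2 as lower. The other members went in both directions, and 4 of 10 B cell genes and 3 of 9 dendritic genes lay above 0. The summed B and plasma cell list took 0.0158 to 0.0286% of counts in Ccl2-/- rats and 0.0149 to 0.0216% in SS rats, and the dendritic list 0.0124 to 0.0160% and 0.00968 to 0.0168%. The ranges of both lists overlapped between genotypes, and so did those of the T and NK list (0.0155 to 0.0182% and 0.0169 to 0.0253%). Of 6 neutrophil genes 1 was lower, Lcn2, which tubules also make. Lsp1, an actin-binding protein of leukocytes, was among the 6 genes of smallest p (-0.78 ± 0.09, adjusted p = 7.31e-05), as was Tmsb10, an actin-sequestering thymosin (-1.04 ± 0.13, adjusted p = 8.19e-05).

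MHC class II genes, which present antigen to helper T cells, were lower together. Of 11 tested genes 8 were lower and 0 higher, with a median of -0.50. The count was 9 without SS rat 1 and 7 without SS rats 2, 3 or 4 or Ccl2-/- rat 1. It was 6 without Ccl2-/- rats 4 or 5, and 2 with the tubule score. RT1-Db1 ranged over 8608 to 10738 normalized counts in Ccl2-/- rats and 13805 to 18295 in SS rats (-0.74 ± 0.11, adjusted p = 5.13e-04). RT1-Da (-0.66 ± 0.10), RT1-Ba (-0.59 ± 0.11), the peptide loader RT1-DMa (-0.45 ± 0.09) and Ciita, the master activator of the class (-0.65 ± 0.12), were lower too. Reads of RT1 genes are uncertain between near-identical copies.

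Among chemokine ligands 3 of 29 were lower and 2 higher, against 4.82% lower and 3.7% higher over all genes. The lower count was 5 without SS rat 5 and 2 without SS rat 1. The higher count was 1 without SS rats 1 or 3 or Ccl2-/- rats 2, 3, 4 or 5. Besides Ccl2, the lymphoid chemokine Ccl19 was lower (-0.91 ± 0.21, adjusted p = 0.0109), and Ccl17, a ligand of CCR4, was lower (-1.71 ± 0.44) but not without SS rat 1 or Ccl2-/- rat 4. Ccl3, a ligand of CCR1, went the other way. It ranged over 108 to 169 normalized counts in Ccl2-/- rats and 43.9 to 64.7 in SS rats, without overlap (1.36 ± 0.20, adjusted p = 4.50e-04). Its neighbour in function Ccl4 was higher (1.03 ± 0.30, adjusted p = 0.0356) but lost its call without SS rats 1 or 3 or Ccl2-/- rats 2, 3, 4 or 5. Of 19 receptors 3 were lower and 0 higher. The receptor Ccr6 of type 17 helper cells and B cells ranged over 32.0 to 37.7 in Ccl2-/- rats and 88.4 to 145 in SS rats (-1.82 ± 0.20, adjusted p = 3.70e-05), and the others were Ccr2 and Ccr7.

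Of 20 adhesion genes 5 were lower and 1 higher, and 3 were lower without SS rat 1, SS rat 2 or Ccl2-/- rat 3. P-selectin (Selp), with which activated endothelium and platelets catch leukocytes, ranged over 22.0 to 37.2 in Ccl2-/- rats and 62.4 to 119 in SS rats (-1.60 ± 0.21, adjusted p = 1.44e-04). The gut-homing integrin chain Itgb7 was lower (-1.11 ± 0.25), as was E-selectin, Sele (-0.88 ± 0.24), though not without SS rats 1 or 2 or Ccl2-/- rats 3 or 4. Jam2, a junctional adhesion molecule of endothelium, was the higher gene (0.55 ± 0.17), though not without SS rat 1 or Ccl2-/- rats 1, 2, 3, 4 or 5.

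NF-kB genes, most of which are both parts and targets of the pathway, had 9 lower and 0 higher members among 32 (median -0.21). Without SS rat 1 the count was 6, and with the tubule score 1, which was Ccl2 itself. The subunits Nfkb2 (-0.57 ± 0.11, adjusted p = 0.00325) and Relb (-0.62 ± 0.14), the feedback inhibitor Tnfaip3 (-0.57 ± 0.12), the co-regulator Bcl3 (-0.71 ± 0.16) and the survival factor Birc3 (-1.06 ± 0.18) were lower. The cytokines Tnf (-0.20 ± 0.32, adjusted p = 0.730), Il1b (0.08 ± 0.19, adjusted p = 0.832) and Il6 (-0.84 ± 0.59, adjusted p = 0.374) did not pass. RefSeq promoters (build GRCr8, 250 bases before to 50 after the gene start) were matched for Nfkb2, Tnfaip3 and Bcl3, the lower NF-kB genes of smallest p with an entry, and not for Ccl2, Birc3 or Relb. They are shown 5′ to 3′ on the strand of the gene, and these genes were chosen for being lower. Each match on either strand to GGGA and CC separated by 4 bases of any kind is in capitals.
Nfkb2: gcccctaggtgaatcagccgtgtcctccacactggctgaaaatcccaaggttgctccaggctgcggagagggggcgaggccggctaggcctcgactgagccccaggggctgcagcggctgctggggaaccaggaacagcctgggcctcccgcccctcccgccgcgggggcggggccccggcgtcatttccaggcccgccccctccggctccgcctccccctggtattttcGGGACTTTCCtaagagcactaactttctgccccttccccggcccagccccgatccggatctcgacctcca
Tnfaip3: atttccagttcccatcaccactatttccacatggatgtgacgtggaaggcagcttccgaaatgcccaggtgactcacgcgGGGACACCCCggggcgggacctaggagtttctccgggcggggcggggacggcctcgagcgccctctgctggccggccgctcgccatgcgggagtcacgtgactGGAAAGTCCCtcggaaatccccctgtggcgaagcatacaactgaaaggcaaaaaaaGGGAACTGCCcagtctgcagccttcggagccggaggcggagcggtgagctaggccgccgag
Bcl3: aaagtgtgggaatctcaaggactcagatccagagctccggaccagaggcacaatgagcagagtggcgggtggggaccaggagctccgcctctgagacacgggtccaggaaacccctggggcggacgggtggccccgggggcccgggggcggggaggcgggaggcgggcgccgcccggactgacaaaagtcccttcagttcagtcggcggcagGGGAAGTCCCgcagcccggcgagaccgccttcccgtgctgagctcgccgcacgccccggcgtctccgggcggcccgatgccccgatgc
The match in Nfkb2 begins 20 bases before the gene start, the matches in Tnfaip3 170, 67 and 11 bases before it, and that in Bcl3, which reads as a match on both strands, 38 bases before it. Such a match is held by 19.3% of all 33469 RefSeq promoters of this length, and by 25.2% of those of tested genes. In the NF-kB list 26 members had an entry and 16 of these hold a match. The list was put together from parts and targets of the pathway, so that share is not a result of these data. A match is a description of letters and not evidence of binding.

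In the list of interleukins and their receptors 5 of 42 were lower and 0 higher. Socs3, which curbs signalling of IL-6 family receptors, was lower (-1.45 ± 0.22, adjusted p = 4.97e-04), as were Lif, a cytokine of that family (-1.37 ± 0.26), Il34, a ligand of the macrophage growth factor receptor CSF1R (-0.79 ± 0.13), and Il1rl1, the IL-33 receptor (55.1 to 132 normalized counts in Ccl2-/- rats and 149.9 to 241 in SS rats, adjusted p = 0.0104). Among the 12 largest decreases of called genes with a mean of 50 or more normalized counts were 2 cytokines of the IL-10 family, which the list did not hold. Il24 ranged over 16.5 to 25.1 in Ccl2-/- rats and 47.4 to 244 in SS rats (-2.79 ± 0.44, adjusted p = 7.54e-04), and Il19 over 13.2 to 26.3 and 53.8 to 299 (-2.59 ± 0.46, adjusted p = 0.00185). Of 25 genes of the TNF superfamily 4 were lower, including Tnfrsf9 (-0.95 ± 0.18), the TWEAK receptor Tnfrsf12a (-0.98 ± 0.22) and Ltb (-0.64 ± 0.15). Interferon response genes had 3 lower and 1 higher members among 28, against 4.82% lower and 3.7% higher over all genes. The lower count was 1, Ifi27 (-0.48 ± 0.11), without SS rats 1 or 2 or Ccl2-/- rats 2 or 3.

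Complement component C4 was lower by a wide margin. Of 25 tested complement genes 6 were lower and 1 higher, the latter not without SS rat 1 and others. C4b, a form of component C4, stood at 616, 601, 704, 659.9 and 605 normalized counts in Ccl2-/- rats and 4686, 3503, 2173, 1610 and 1509 in SS rats. The Ccl2-/- rats lay close together and the SS rats spread over an about 3-fold range above them (-1.94 ± 0.21, adjusted p = 3.70e-05). C4a was lower as well (-1.76 ± 0.24), although reads of these near-identical genes are uncertain between the copies. Cfi, the protease that cleaves C3b and C4b, ranged over 105 to 158 and 416 to 1393 (-2.33 ± 0.30, adjusted p = 1.39e-04). Of 22 genes of coagulation and fibrinolysis 5 were lower, with the fibrinogen chains also S100a10, which docks plasminogen on the cell surface (-0.89 ± 0.13).

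Tenascin C fell by the widest margin among the matrix genes described here. Of 25 collagen genes 2 were lower and 0 higher, against 4.82% lower over all genes, with a median of 0.01. Col15a1, a collagen of vascular basement membranes, was lower (-0.91 ± 0.16, adjusted p = 0.00216), and Col8a1 was lower (-0.74 ± 0.22) but not without SS rats 1, 2 or 3 or Ccl2-/- rats 1, 2, 3, 4 or 5. The fibrillar collagens Col1a1 (-0.03 ± 0.14, adjusted p = 0.924) and Col3a1 (-0.09 ± 0.14, adjusted p = 0.729) and fibronectin, Fn1 (-0.09 ± 0.13, adjusted p = 0.689), did not pass. In the wider matrix list 5 of 44 were lower and 1 higher. The lower count was 8 without SS rat 4 and 4 without SS rat 2 or Ccl2-/- rats 1 or 5. The higher count was 0 without SS rats 1 or 3 or any 1 of the Ccl2-/- rats. Tenascin C (Tnc), a glycoprotein of wounds and remodelled vessels, stood at 49.6, 104, 105, 76.5 and 90.1 in Ccl2-/- rats and 798, 687, 309, 218 and 199.9 in SS rats. Its groups did not overlap (-2.18 ± 0.31, adjusted p = 3.60e-04), and SS rats 1 and 2 were the highest. Periostin, Postn (-2.02 ± 0.41), and Ltbp2 (-1.21 ± 0.21) were lower too.

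Of 30 matrix proteases and inhibitors 8 were lower and 1 higher. The count of lower genes was 4 without SS rat 1, SS rat 3 or Ccl2-/- rats 1, 4 or 5, 3 without SS rat 2 and 5 without Ccl2-/- rat 2. Adamts1, a protease of versican and other proteoglycans, ranged over 1655 to 2450 and 3027 to 11420 (-1.48 ± 0.27, adjusted p = 0.00211). The macrophage elastase Mmp12 was lower (-0.85 ± 0.17), and the inhibitor Timp3 was higher (0.58 ± 0.14), opposite to Timp1. In the TGF-beta and BMP list 3 of 40 were lower and 3 higher, against 4.82% lower and 3.7% higher over all genes. Without SS rat 1 or Ccl2-/- rat 2 the counts were 2 lower and 1 higher. The BMP antagonist Grem1 was higher (1.08 ± 0.26) and the activin inhibitor Fstl3 was lower (-0.98 ± 0.22). Of 16 fibroblast markers 1, Gsn (-0.40 ± 0.10), was lower.

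**Figure D3:**
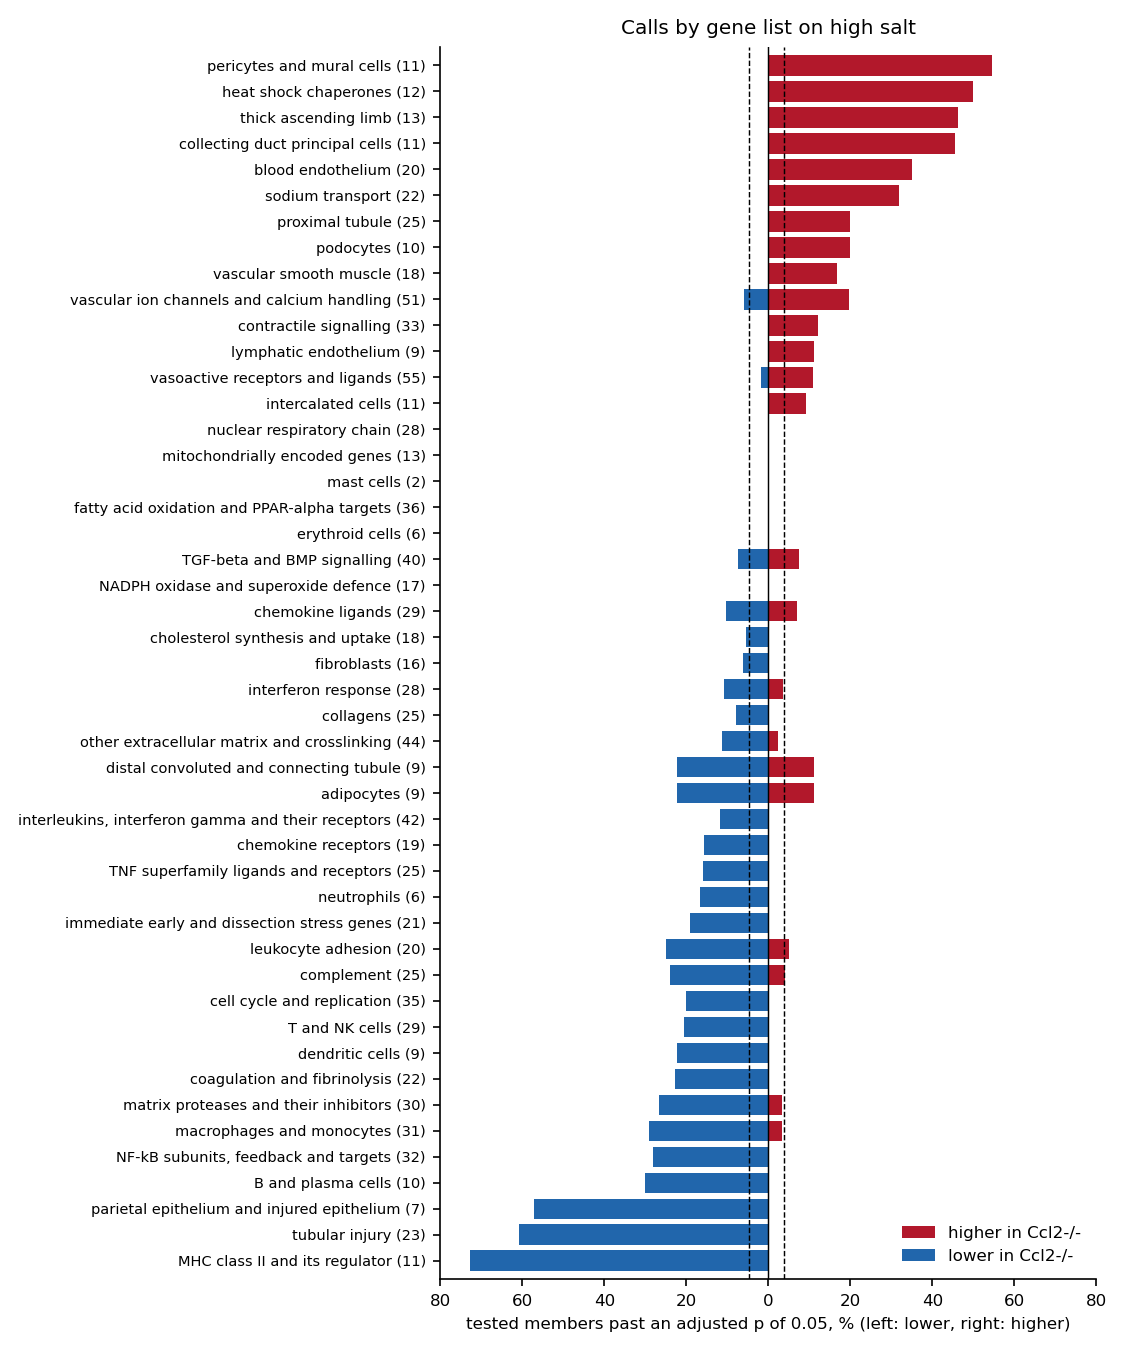
Share of the tested members of each list (y axis, with the number tested) that were higher (red, to the right) or lower (blue, to the left) in Ccl2-/- than in SS rats on high salt, in percent of members (x axis). Dashed lines give the share over all genes, 4.82% lower and 3.7% higher. Injury and MHC class II genes were mostly lower, and 6 of 11 pericyte and 6 of 12 heat shock genes were higher.

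Pericyte and endothelial genes that passed were higher in Ccl2-/- rats, against 3.7% higher over all genes. Of 11 pericyte and mural cell genes 6 were higher and 0 lower (median 0.50), and 3 without SS rat 1 or Ccl2-/- rats 2 or 5. Notch3, the receptor that keeps mural cells differentiated, ranged over 1593 to 2225 normalized counts in Ccl2-/- rats and 862 to 1476 in SS rats (0.80 ± 0.15, adjusted p = 0.00259). The regulator of G protein signalling Rgs5 was higher (0.82 ± 0.19). Of 20 endothelial genes 7 were higher and 0 lower (median 0.35). They fell to 3 without Ccl2-/- rats 2 or 5 and to 4 without SS rats 1 or 3 or Ccl2-/- rats 1, 3 or 4. With the tubule score 4 endothelial genes were higher (median 0.58). The matrix protein Mmrn2 (0.52 ± 0.12), the angiopoietin receptor Tek (0.58 ± 0.14) and the VEGF receptor Flt1 (0.54 ± 0.13) were higher. Pecam1 (0.40 ± 0.13, adjusted p = 0.0632) and the endothelial nitric oxide synthase Nos3 (0.25 ± 0.14, adjusted p = 0.268) did not pass. The summed endothelial markers took 0.409 to 0.506% of counts without mitochondrial genes in Ccl2-/- rats and 0.236 to 0.435% in SS rats.

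Smooth muscle and contractile signalling genes that passed were higher in Ccl2-/- rats. Of 18 smooth muscle genes 3 were higher and 0 lower, again against 3.7% higher over all genes. The intermediate filament protein Synm was higher (0.51 ± 0.12), and Ppp1r12b (0.57 ± 0.17) and Lmod1 (0.67 ± 0.20) lost their call without SS rat 1 and others, whereas 5 genes passed without SS rat 5. The count was 1 without SS rats 1 or 2 or Ccl2-/- rats 1, 2 or 5, and 1 with the tubule score as a covariate. Acta2 (0.23 ± 0.14, adjusted p = 0.305) and Myh11 (0.42 ± 0.18, adjusted p = 0.141), the actin and myosin of smooth muscle, did not pass. Of 33 genes of contractile signalling 4 were higher and 0 lower, 2 of them without SS rat 1 and 1 without Ccl2-/- rat 5. The RhoA-dependent kinase Rock2 was among them (0.42 ± 0.10) and lost its call without Ccl2-/- rat 5.

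Of 51 genes of vascular ion channels and calcium handling 10 were higher and 3 lower. The list shares Scnn1b, Scnn1g, Slc8a1 and Atp2b4 with the distal and collecting duct lists, and Atp2b4 was among the higher genes. Its counts are therefore not those of vessel genes alone. The count of higher genes moved with single rats. It was 2 without SS rat 1, 3 without Ccl2-/- rats 2, 4 or 5, 5 without SS rat 3 or Ccl2-/- rat 1 and 6 without SS rat 2 or Ccl2-/- rat 3, but 13 without SS rat 4 and 12 without SS rat 5. The inward rectifier Kcnj2, which sets the resting potential of small arteries (0.65 ± 0.15), and the mechanosensitive cation channel Trpv4 (0.37 ± 0.09) were higher. The gap junction protein Gja1 (-0.88 ± 0.19) and the calcium-activated potassium channel Kcnn4 (-0.61 ± 0.14) were lower. The L-type calcium channel Cacna1c (0.55 ± 0.18, adjusted p = 0.0566), Trpc6 (0.48 ± 0.23, adjusted p = 0.176) and the large-conductance potassium channel Kcnma1 (0.33 ± 0.20, adjusted p = 0.295), which shape myogenic tone, did not pass. The 5 Ccl2-/- rats lay above the 5 SS rats for Cacna1c (224 to 272 against 104 to 222), as they did for 3.89% of all tested genes. The value of 104 was that of SS rat 1, which lay far below the other SS rats.

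Among vasoactive receptors, their ligands and enzymes 6 of 55 were higher and 1 lower. The lower gene was the alpha-1D adrenergic receptor Adra1d, which ranged over 129 to 220.4 in Ccl2-/- rats and 306 to 1370 in SS rats (-1.77 ± 0.27, adjusted p = 5.13e-04). The endothelin receptor Ednrb (0.88 ± 0.17) and the phosphodiesterase Pde1a (0.52 ± 0.10) were higher. Ednra, the constrictor endothelin receptor of smooth muscle, was higher by 0.53 ± 0.16 (adjusted p = 0.0420) but lost its call without SS rats 1, 2 or 3 or Ccl2-/- rats 1, 2, 4 or 5. The angiotensin receptor Agtr1a did not pass (0.39 ± 0.15, adjusted p = 0.107). Of 9 lymphatic markers 1 was higher, the guidance cue Sema3d (0.90 ± 0.21). Of 10 podocyte markers 2 were higher, Podxl (0.57 ± 0.12), which endothelium also makes, and Clic5 (0.50 ± 0.14), the latter not without Ccl2-/- rats 1, 4 or 5.

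**Figure D4:**
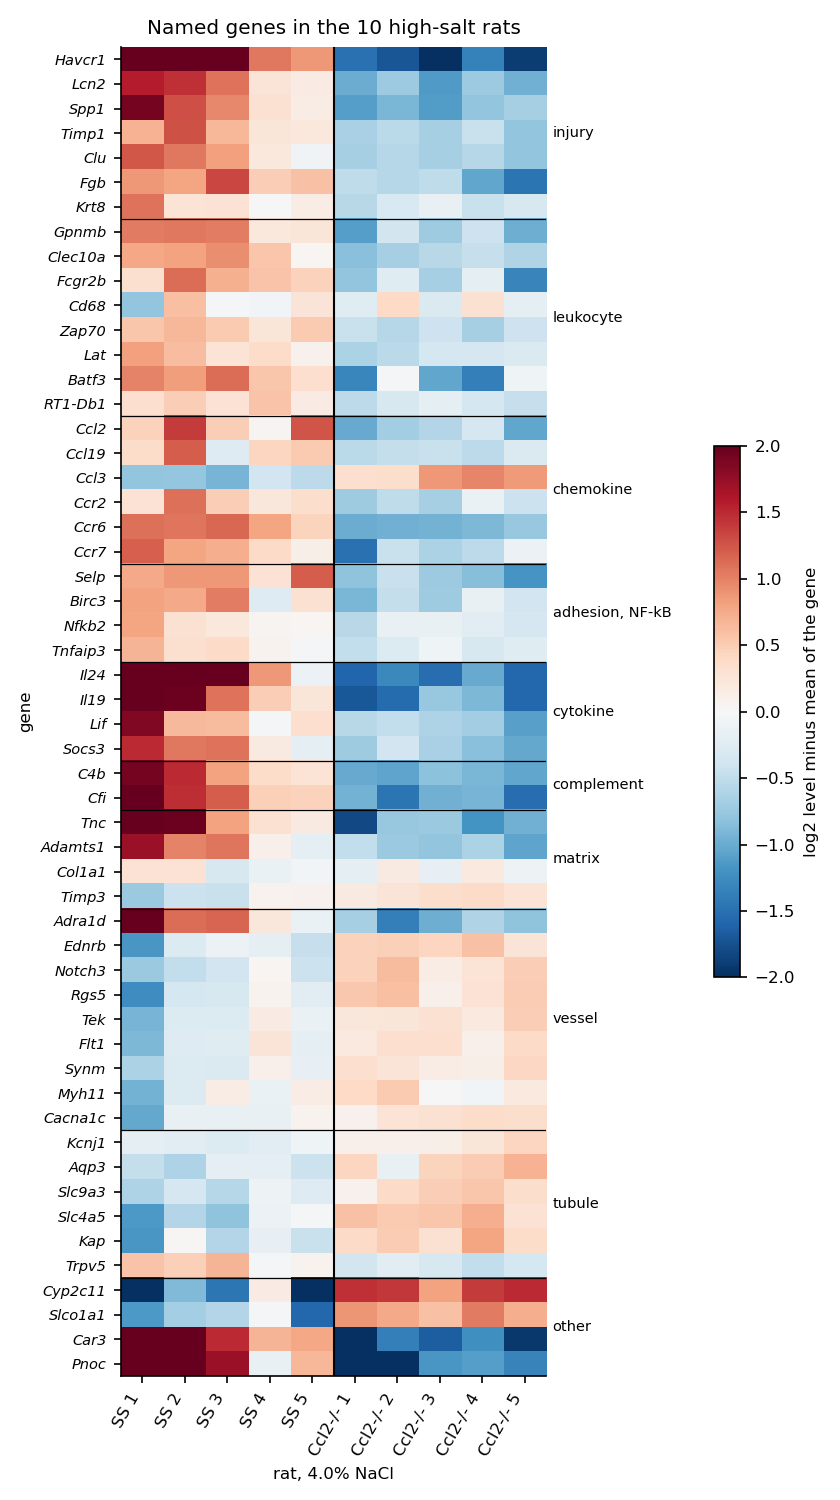
Log2 levels of genes named in the text in the 10 high-salt rats (columns), each gene (rows, grouped by role) centred on its mean over the 10; blue is below and red above that mean, from -2 to 2 on the log2 scale. SS rats 4 and 5 lie nearer to the Ccl2-/- rats than SS rats 1 to 3 do for Havcr1, Spp1 and C4b.

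Transport genes of the tubule that differed were mostly higher in Ccl2-/- rats, as was the summed tubule share. The thick ascending limb list had 6 higher and 0 lower members among 13, the collecting duct list 5 among 11 and the proximal tubule list 5 among 25. With the tubule score as a covariate no gene of the 3 lists passed as higher in limma. That score is the mean level of these lists and the distal list. The fit thus takes out the difference they share and cannot test it. The counts were 3, 1 and 1 without Ccl2-/- rat 4. The thick ascending limb count was also 3 without SS rat 5. The collecting duct count was 2 without SS rat 1, 3 without SS rats 3 or 4 and 1 without Ccl2-/- rat 5, and the proximal tubule count was 3 without SS rats 1, 2 or 3 or Ccl2-/- rats 1, 2, 3 or 5. The potassium channel Kcnj1 (0.40 ± 0.09), the growth factor precursor Egf (0.55 ± 0.14), the water channel Aqp3 (0.77 ± 0.12) and the androgen-regulated protein Kap (0.94 ± 0.21) were higher. The vasopressin-regulated water channel Aqp2 (0.64 ± 0.18) passed but not without SS rats 3 or 4 or Ccl2-/- rats 3, 4 or 5. The phosphate transporter Slc34a1 (0.15 ± 0.12, adjusted p = 0.451) and Umod (0.29 ± 0.20, adjusted p = 0.374) did not pass. Of 22 sodium transport genes 7 were higher and 0 lower, and 3 without SS rat 1 or Ccl2-/- rats 4 or 5. They included the sodium-hydrogen exchanger Slc9a3 (0.75 ± 0.13, adjusted p = 0.00172) and the bicarbonate transporter Slc4a5 (1.08 ± 0.22, adjusted p = 0.00573). The distal tubule genes Trpv5 and Calb1 went the other way. The calcium channel Trpv5 was lower (-0.70 ± 0.15), and so was the calcium binder Calb1 (-0.55 ± 0.14), though not without SS rats 1 or 2. Of 9 genes of that segment 2 were lower and 1, Atp2b4 (0.37 ± 0.11), was higher, though not without SS rat 1 and most others. Of 11 intercalated cell genes 1, Hepacam2 (0.46 ± 0.14), was higher, and it lost its call without several single rats, SS rat 1 among them.

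The largest increase past the threshold was that of Cyp2c11, a male-specific steroid hydroxylase of rat liver. It stood at 757, 728, 478, 719 and 771 normalized counts in Ccl2-/- rats and 54.8, 147, 99.3, 306 and 62.8 in SS rats, without overlap (2.63 ± 0.38, adjusted p = 3.42e-04). Reads of Cyp2c genes are uncertain between near-identical copies. The organic anion transporter Slco1a1 (1.60 ± 0.28), the kallikrein family member Klk1c4, whose reads are likewise uncertain (1.55 ± 0.34), and the transcription factor Foxp2 (1.34 ± 0.25) were also among the 12 largest increases. So were the chloride channel Cftr (1.55 ± 0.40) and Mlc1 (1.48 ± 0.38), which both lost their call without SS rat 1 or Ccl2-/- rat 4, and Cyp1a1 (1.39 ± 0.42), which lost it without SS rat 1 and most others. Ccl3 was another.

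The largest decrease was that of Car3, a carbonic anhydrase abundant in fat and muscle. It stood at 20.9, 45.6, 37.4, 50.1 and 30.4 in Ccl2-/- rats and 1052, 699, 337, 191 and 205 in SS rats, without overlap (-3.45 ± 0.39, adjusted p = 3.70e-05). SS rats 1 and 2 held the highest levels and SS rats 4 and 5 the lowest of their group. Another adipocyte product, Cfd or adipsin, was lower (-1.36 ± 0.32), while the fatty acid binder Fabp4, which capillary endothelium also makes, was higher (0.71 ± 0.19) but not without SS rat 1 or Ccl2-/- rats 2, 4 or 5. The other adipocyte markers, 6 of 9 tested, did not pass, Adipoq at 0.19 ± 0.16 among them. The summed adipocyte list took 0.0250 to 0.0294% of counts in Ccl2-/- rats and 0.0195 to 0.0240% in SS rats. Further large decreases were those of the nociceptin precursor Pnoc (-3.18 ± 0.48), the lipoxygenase Alox15b (-2.62 ± 0.56), the scavenger receptor Scart1 of gamma delta T cells (-2.06 ± 0.34), the transcription factor Msc (-2.02 ± 0.33) and Ptchd3 (-2.15 ± 0.34).

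The counts of cell cycle and stress genes moved with single rats. Of 35 cell cycle and replication genes 7 were lower and 0 higher (median -0.40), 2 without SS rat 1, 3 without SS rat 2 or Ccl2-/- rat 4 and 4 without Ccl2-/- rats 1 or 5. The replication helicase subunit Mcm5 was lower in each of these fits (-0.98 ± 0.23). Of 12 heat shock chaperones 6 were higher and 0 lower, but 1, Hsph1 (0.88 ± 0.20), without SS rats 1 or 3 or Ccl2-/- rats 3, 4 or 5, and 2 without SS rat 5. Of 21 immediate early genes 4 were lower, among them Socs3 and Egr2 (-1.29 ± 0.30), with 8 without SS rat 5 and 2 without Ccl2-/- rat 5. These genes also respond to the handling of tissue, and the part of handling in the difference was not tested. Of 18 genes of cholesterol synthesis and uptake 1, the mevalonate kinase Mvk (-0.33 ± 0.10), was lower and lost its call without single rats, SS rat 1 among them.

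Genes of energy use and oxidant production gave no call in limma over all rats. None of 36 fatty acid oxidation genes passed (median 0.30), although 12 were higher without SS rat 4 and 1 without SS rats 3 or 5 or Ccl2-/- rat 1, edgeR passed 1 and DESeq2 2. At an unadjusted p under 0.05 there were 14. None of 13 mitochondrially encoded genes, 28 nuclear genes of the respiratory chain or 17 genes of NADPH oxidase and superoxide defence passed. In limma 1 nuclear respiratory chain gene was lower without SS rat 3 and 2 were lower when the fit held the mitochondrial share, and 26 of the 28 lay below 0. At an unadjusted p under 0.05 these lists held 0, 8 and 4, edgeR passed 0 of each, and DESeq2 passed 0, 2 and 0. None of 2 mast cell or 6 erythroid genes passed in limma, edgeR or DESeq2, with 0 and 1 at an unadjusted p under 0.05.

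The same comparison on 0.3% NaCl, which shares no library with that on 4.0% NaCl, gave a count that depended on the processing. On low salt 90 genes (0.557%) differed between genotypes, and 9 of them also differed on high salt, 7 in the same direction. The low-salt count rested on single rats and ranged from 0 without Ccl2-/- rat 5 to 397 without SS rat 4. It was 563 in DESeq2, 63 in edgeR, 487 with library weights, 4059 scaled to the library total and 356 with the mitochondrial share in the fit. On low salt the tubule share went the other way, 3.86 ± 0.437% in rats labelled Ccl2-/- and 4.33 ± 0.222% in SS rats (SD, n = 5 each). The mitochondrial share was 20.5 ± 5.76% and 30.2 ± 8.06%, and the ranges of the genotypes overlapped for both shares. The difference between the diets was tested as an interaction, the genotype difference on high salt minus that on low salt. It passed for 409 genes, 284 negative (1.76%) and 125 positive (0.774%). With the tubule score as a covariate limma passed 0 genes (1107 at an unadjusted p under 0.05, and 439 in edgeR without the score), and with the mitochondrial share 173. Scaled to the library total, with mitochondrial transcripts in it, 1053 were negative and 29 positive, and scaled to the total without them 423 and 74. The first of these scalings moved the median of all genes from 0.00 to 0.26 on low salt and left that on high salt at 0.00. The count of 409 fell to 237 without high-salt SS rat 2, to 224, 237 and 267 without high-salt Ccl2-/- rats 1, 4 and 5, and to 260 and 221 without low-salt Ccl2-/- rats 4 and 5. Of the 1376 genes that differed on high salt, 300 passed the interaction. For the rest a difference between diets was not shown, which does not show that the diets act alike.

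Havcr1 ranged over 489.5 to 964 normalized counts in SS rats and 294 to 1010 in rats labelled Ccl2-/- on low salt. Both ranges lay above the high-salt Ccl2-/- rats and below the high-salt SS rats. The genotypes differed by -0.19 ± 0.30 on low salt (adjusted p = 0.776), and the interaction was -3.24 ± 0.42 (adjusted p = 9.86e-04). Ccl2 ranged over 138 to 212 in SS rats and 124 to 218 in rats labelled Ccl2-/- on low salt and differed by -0.12 ± 0.22, with an interaction of -1.34 ± 0.31 (adjusted p = 0.0237). C4b, Gpnmb and Car3 differed by 0.28 ± 0.21, 0.23 ± 0.19 and -0.05 ± 0.39 on low salt, with interactions of -2.22 ± 0.30, -1.66 ± 0.27 and -3.40 ± 0.55 (adjusted p = 0.00119, 0.00413 and 0.00413). Each of these 5 interactions also passed without any 1 of the 20 rats. Cyp2c11 ranged over 131 to 239.7 in SS rats and 108 to 465 in rats labelled Ccl2-/- on low salt, and its interaction was 2.42 ± 0.53 (adjusted p = 0.0198). Over all genes 1.76% passed the interaction downward and 0.774% upward. In the injury list 7 of 23 genes passed it downward, in the macrophage list 7 of 31, in the NF-kB list 7 of 32 and in the T and NK cell list 6 of 29. In the thick ascending limb list 5 of 13 passed upward. The pericyte and endothelial lists had 0 genes past the interaction in limma, with 2 of 11 and 2 of 20 at an unadjusted p under 0.05, 0 and 0 in edgeR and 0 and 0 in DESeq2. Their medians were above 0 on both diets, 0.50 on high and 0.41 on low salt for pericytes and 0.35 and 0.28 for endothelium. Collagen genes had 8 of 25 higher in rats labelled Ccl2-/- on low salt (Col1a1 0.68 ± 0.14 and Col3a1 0.70 ± 0.14), and 3 passed the interaction downward. Without low-salt Ccl2-/- rat 5, limma passed 0 collagen genes on low salt (15 at an unadjusted p under 0.05), and with the tubule score 0 (12), while on all rats edgeR passed 7 and DESeq2 10. The interaction of Col3a1 lost its call in 10 of the 20 leave-outs.

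**Figure D5:**
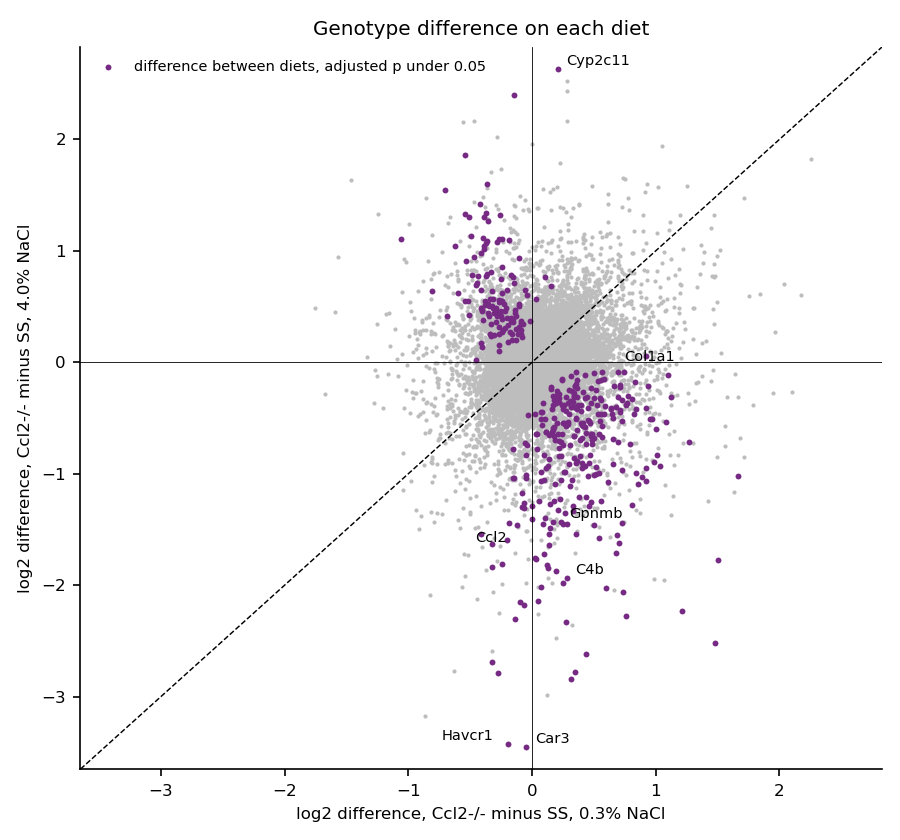
Log2 difference between rats labelled Ccl2-/- and SS rats on 0.3% NaCl (x axis) against that on 4.0% NaCl (y axis), 1 point for each of 16153 genes; the dashed line marks equal differences. Purple points (409) passed the test of the difference between diets. Havcr1, Car3 and C4b lie near 0 on the x axis and far below 0 on the y axis.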

How the data were processed

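Microvessels dissected from the kidney were sequenced as polyadenylated RNA in 20 rats, 5 in each of 4 groups of genotype and dietary NaCl. Per the submitters' processing notes, Trim Galore, MultiQC, STAR 2.7.11b, featureCounts 2.0.6 and DESeq2 1.44 were used with build mRatBN7.2. Tool settings and the handling of strand were not given in the sources used. The authors deposited 1 signal table of normalized counts, gene counts divided by a size factor for each library. Dividing by the step of each library gave whole reads for 100% of values (tolerance 1e-06), 22035178 to 39094524 reads for the high-salt libraries. Each gene listed had at least 100 reads over all libraries. Of its 16672 genes 1129 had no name, and the lower row of each of 58 repeated symbols was kept under its Ensembl ID.

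Genes with at least 10 normalized counts in at least 5 libraries were tested in limma 3.58.1 (R 4.3.3) on log2(normalized count + 1), with 4 group means over all libraries, a mean-variance trend and Benjamini-Hochberg adjustment over all genes. Folds on this scale understate changes of low genes. Rats are the replicates, and the labels tie no number to a litter or day. The alternatives, in edgeR 4.0.16 and DESeq2 1.42.0 on the recovered reads and in limma with other scalings, filters, pseudocounts, covariates or rats left out, are given in the closing section. The scripts were tested on simulated data.

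Named genes were Ccl2, Ccr2, the 12 largest changes in each direction among called genes whose mean reached 50 normalized counts, the 6 with the lowest p, in each of 47 lists at most 5 called members with the lowest p, members fixed by name and list members that did not pass. Some genes stand in several lists. The members and lists were chosen with earlier results of these data known. Bcl3 and the promoters of Tnfaip3 and Bcl3 were chosen after the table of promoters lacked Ccl2, Birc3 and Relb. Adgre1, Cd3e and Adipoq were named after their values were seen. Some genes that this rule names are not reported here.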

Additional observations from a re-analysis of the deposited data

Results flagged for a closer look

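Of the 147 genes named above, 71 had a genotype difference on high salt that differed from that on low salt, by the interaction in limma (log2, high-salt minus low-salt difference, in parentheses). In 59 of them the interaction was negative and in 12 positive. The call also passed without any 1 of the 20 rats for 42 of them. Negative interactions of this kind were those of Car3 (-3.40), Havcr1 (-3.24), Scart1 (-2.80), Cfi (-2.60), C4b (-2.22), Serpina3a (-2.17), Tnc (-2.11), Ptchd3 (-2.06) and Ccr6 (-1.95). Next in size were Il1rl1 (-1.83), Adra1d (-1.80), C4a (-1.78), Socs3 (-1.70), Gpnmb (-1.66), Ltbp2 (-1.58), Lcn2 (-1.57), Spp1 (-1.52) and Zap70 (-1.51). Smaller ones were Timp1 (-1.46), Fcgr2b (-1.42), Selp (-1.39), Ccl2 (-1.34), Col15a1 (-1.31), Clec10a (-1.30), Cd44 (-1.24), Clu (-1.21) and Lat (-1.20). Smaller ones were Trpv5 (-1.18), Birc3 (-1.15), Tmsb10 (-0.88), Tnfaip3 (-0.84), Lgals3 (-0.82), RT1-Db1 (-0.70) and Lsp1 (-0.63). Positive interactions of this kind were those of Cyp2c11 (2.42), Slco1a1 (1.96), Foxp2 (1.71), Kap (1.42), Slc4a5 (1.36), Slc9a3 (1.00), Pde1a (0.63) and Kcnj1 (0.57). For the other 29 genes the call was lost without at least 1 rat. Negative among these were Alox15b (-3.06), Il24 (-2.52), Egr2 (-1.76), Fcrla (-1.73), Batf3 (-1.67), Adamts1 (-1.63), Ccr7 (-1.62), Cd8b (-1.57) and Cd3d (-1.52). Next in size were Itgb7 (-1.42), Fgb (-1.31), Fstl3 (-1.25), Sele (-1.25), Ccl19 (-1.21), Mmp12 (-1.06), Ccr2 (-1.06), Dcdc2 (-0.97) and Bcl3 (-0.95). Smaller ones were Ltb (-0.85), Calb1 (-0.81), Col3a1 (-0.79), Kcnn4 (-0.78), Relb (-0.74), Ciita (-0.68) and RT1-DMa (-0.52). Positive among these were Cftr (2.25), Egf (0.80), Aqp3 (0.66) and Trpv4 (0.54).

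In 18 of 298 sets of 5 high-salt values, those of the named genes in each genotype and of the tubule and mitochondrial shares, 1 rat stood far from the other 4 by Dixon's ratio. Chance flags about 1 in 20 such sets. The normalized counts of these rats are in parentheses. Ccl2-/- rat 2 lay above the others for Agtr1a (2023) and Scart1 (40.0). Ccl2-/- rat 3 lay above the others for Cfd (71.3) and below the others for Cyp2c11 (478) and Fabp4 (817). Ccl2-/- rat 4 lay above the others for Foxp2 (174), Il6 (14.5) and Msc (40.9). Ccl2-/- rat 5 lay above the others for Krt18 (532) and Rock2 (4845). SS rat 1 lay above the others for Krt8 (12856) and Lif (595) and below the others for Cacna1c (104), Clic5 (1545), Jam2 (1461) and Podxl (4117). SS rat 2 lay above the others for Ccr2 (520.3). SS rat 4 lay above the others for Egf (32365).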

How the results depend on the processing

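No named gene that passed on high salt turned its direction under any alternative run. The count of 1376 for null against SS on high salt was 592 when scaled to the library total, 189 with the tubule score as a covariate and 612 to 1798 with 1 high-salt rat left out. It was 2030 in DESeq2, 1441 in edgeR and 996 in the 10 high-salt libraries alone. Of the named genes past the threshold, 36 passed with the tubule score and 109 with scaling to the library total. Tubule content and genotype cannot be told apart on high salt, so that fit does not separate them.

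The 409 genes past the interaction of genotype and salt became 824 in DESeq2, 1082 when scaled to the library total, 173 with the mitochondrial share as a covariate, an alternative chosen after seeing the data, and 221 to 612 with 1 rat left out. With the tubule score limma passed 0 (1107 at an unadjusted p under 0.05), against 439 in edgeR without it. The 90 genes of null against SS on low salt became 563 in DESeq2, 487 with library weights, 356 with the mitochondrial share, 57 with quantile normalization, 4059 when scaled to the library total and 368 to that total without mitochondrial genes. They became 0 with the tubule score in limma (1952 at an unadjusted p under 0.05), against 63 in edgeR without it, and 0 to 397 with 1 rat left out (2191 at an unadjusted p under 0.05 at the lowest).

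The difference in mitochondrial share, 0.00506 percentage points, ranged from -1.58 to 1.79 with 1 rat left out and never passed. The tubule share and Ccl2 kept their call in each leave-out. Rat numbers did not pair the libraries (correlations of same-numbered rats -0.12 to 0.06), and with the rat number as a replicate block 1276 genes passed on high salt, 275 in the interaction and 132 on low salt. The causes of these moves were not tested.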
